A study of Arabidopsis thaliana with 4 samples.

Results

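The VIM (VARIANT IN METHYLATION) family of Arabidopsis thaliana was followed across the genotypes of the study as 6 genes, VIM1 to VIM6, selected by their locus identifiers from the 32548 genes in the table. All 6 were present and all 6 passed the filter on low values, which left 23666 genes for testing. Messenger RNA was sequenced from 2-week-old seedlings raised on plates at 22 °C with 16 h of light a day, in 2 groups of 2 libraries each. The control seedlings are labelled cmt3-/-, for mutation of the chromomethylase gene CMT3, and the other group is labelled tcx5-/-tcx6-/-cmt3-/-, so every library carries the cmt3 label. TCX5 and TCX6 are CXC-domain proteins of DREAM, a complex that represses cell cycle genes, and the title of the series names repression of methylation maintenance genes by DREAM as its question. The labels name no alleles and do not say whether replicates were grown separately, so each p-value reflects library-to-library spread alone, part or all of it possibly technical.

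VIM proteins read DNA just after replication. Their SRA domain binds CG sites at which only the parental strand carries methylation, and they act with the methyltransferase MET1, which then methylates the new strand, while their RING domains give them ubiquitin ligase activity. They are the plant counterparts of mammalian UHRF1, and plants lacking VIM1, VIM2 and VIM3 together lose CG methylation. VIM1 to VIM5 carry a PHD finger, RING domains and the SRA domain, and VIM6, annotated as ORTHRUS-like, is a shorter relative without the PHD finger.

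The genes lie at 4 places in the genome (TAIR10.1 coordinates, RefSeq annotation). VIM1 (AT1G57820, chromosome 1, 21413981 to 21418115) and VIM5 (AT1G57800, chromosome 1, 21408623 to 21412283) stand in tandem on the minus strand with 1 annotated pseudogene, AT1G57810, between them. VIM4 (AT1G66040, chromosome 1, 24583740 to 24586760, minus strand) and VIM2 (AT1G66050, chromosome 1, 24589343 to 24592780, plus strand) are transcribed away from each other, with annotated starts 2583 bases apart. VIM3 (AT5G39550) is on chromosome 5 at 15837178 to 15840678 and VIM6 (AT4G08590) on chromosome 4 at 5463794 to 5466747, both on the minus strand. The coding sequences run from 1854 to 1995 bases in VIM1 to VIM5 and to 1398 bases in VIM6.

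How far a read can be given to 1 copy differs between these neighbours, and the beginning of the VIM2 and VIM4 coding sequences shows why this couple has to be read with care. Over the 90 bases with the most differences between VIM2 (chr1:24589534-24589623, plus strand) and VIM4 (chr1:24586592-24586681, minus strand), which start at the initiation codon, the letters that differ are in capitals:
VIM2: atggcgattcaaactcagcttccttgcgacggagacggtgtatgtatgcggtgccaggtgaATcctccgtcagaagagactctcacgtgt
VIM4: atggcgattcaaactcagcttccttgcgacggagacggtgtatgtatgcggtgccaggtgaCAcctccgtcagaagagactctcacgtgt
These stretches differ at 2 bases. Across the whole coding sequence 1860 of 1869 aligned positions were identical (99.52%), and VIM2 had 3 further bases with no partner in VIM4. The 9 differences fall at positions 62, 63, 159, 189, 253, 420, 1710, 1839 and 1853 of the VIM2 coding sequence, counted from its first base, so that 1289 bases in a row, from 421 to 1709, are the same in both genes.

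VIM1 and VIM5 are also neighbours but much less alike, at 84.08% of 1909 aligned coding positions. Even over the 90 bases where they differ least (VIM1 chr1:21416532-21416621 and VIM5 chr1:21410508-21410597, both minus strand), 7 bases differ, again in capitals:
VIM1: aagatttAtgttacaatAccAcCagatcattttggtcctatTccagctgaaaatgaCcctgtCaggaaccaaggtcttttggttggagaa
VIM5: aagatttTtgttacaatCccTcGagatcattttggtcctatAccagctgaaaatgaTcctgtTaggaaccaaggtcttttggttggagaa
The closest relative of the VIM2 and VIM4 couple was VIM3 on another chromosome, at 95.94% of 1848 positions to each of them. VIM6 matched the others at 78.94% to 81.6% over the part that could be aligned.

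VIM2 and VIM4 again stood apart when every 100-base stretch of each spliced transcript was searched for in the genome and in the transcripts of other genes. All stretches of VIM1 and of VIM5 were unique, as were 98.29% of those of VIM3 and 99.12% of those of VIM6. The remaining 15 VIM6 stretches were shared with no other VIM gene. Their number is what the 114-base overlap of VIM6 with AT4G08580 gives, the same bases counted in another gene's transcript. In VIM2 40.93% of stretches were unique and 59.07% also occurred in VIM4, and in VIM4 34.73% were unique and 65.16% also occurred in VIM2. Read length and the treatment of reads that match several genes were not stated by the submitters' notes. With 50-base stretches the unique share was 22.89% in VIM4 and 83.67% in VIM3, and with 150-base stretches it was 38.42% and 100%. VIM1 and VIM5 can therefore be compared copy by copy, while the levels of VIM2 and VIM4 rest on the 9 coding positions that differ and on the untranslated ends.

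**Figure D1:**
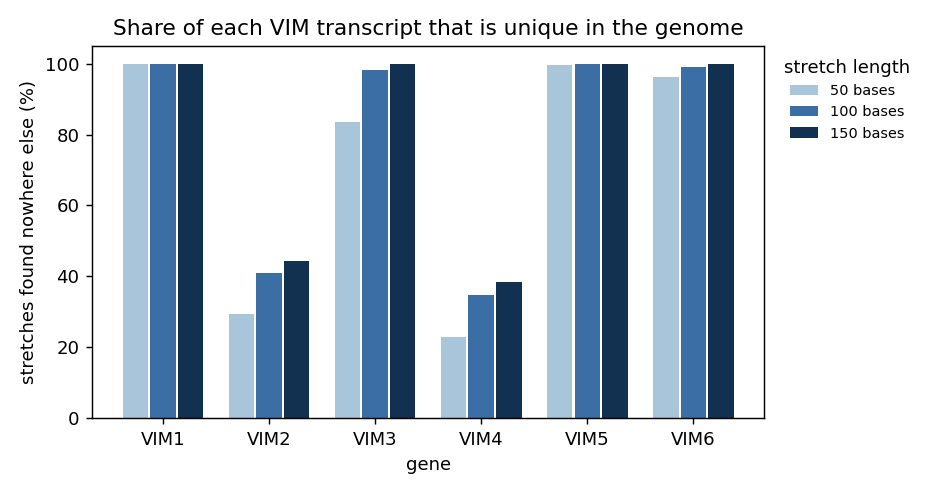
Percentage of stretches of 50, 100 and 150 bases of each VIM transcript that occur nowhere else in the TAIR10.1 genome or in another gene's transcript (bars start at 0). VIM2 and VIM4 stay under 45%, and VIM1 and VIM5 are at or near 100% at every length.

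The mutated genes were examined first as a check of the labels. TCX5 was at 729.8 and 676 in the cmt3 libraries and at 251 and 249 in the others, a log2 fold change of -1.49 (adjusted p = 0.00121 by limma). TCX6 was at 198 and 179.8 in the cmt3 pair against 919 and 1034 in the libraries labelled as tcx6 mutant, a log2 fold change of 2.36 (adjusted p = 0.00044 by limma), which is opposite to a loss of its transcript. CMT3 was at 822 and 662 in the cmt3 pair against 1289 and 1343 in the tcx-labelled pair (log2 fold change 0.83, adjusted p = 0.00985 by limma). CMT3 transcripts were thus present in all 4 libraries labelled cmt3-/-, so its values do not show a loss of transcript either. A value per gene cannot tell which exons the transcripts held. The second group is therefore called the tcx-labelled group, and each direction below depends on that label. The cmt3 libraries also differed from each other: among genes whose mean reached 100, 1.99% were at least 2-fold apart within that pair, against 0.126% in the tcx-labelled pair. All 8 root markers were higher and all 10 leaf markers lower in cmt3 replicate 2 than in replicate 1, and the part of this difference in the results was not tested beyond leaving out each library.

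All 6 VIM genes were higher in the tcx-labelled group. Each passed the test at an adjusted p under 0.05 (limma with a mean-variance trend on log2(value + 1), adjusted by the Benjamini-Hochberg method over the 23666 genes), where 6.15% of all tested genes were called higher, 2.32% lower and 8.47% in either direction. In each of the 6 both tcx-labelled libraries lay above both cmt3 libraries, a pattern seen in 24.4% of tested genes, while 50.1% had groups that did not overlap in either direction. The summed family rose from 2168 and 2115 in cmt3 to 6461 and 6209, which is 2.96 times the cmt3 mean, a log2 fold change of 1.56 ± 0.07 (SE; adjusted p = 0.000376 by limma). The median log2 fold change over all tested genes was -0.02. Values are normalized signal per gene as the authors deposited it, and the depth in reads is unknown. In whole seedlings more cells that express a gene and more RNA in each such cell cannot be told apart.

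**Figure D2:**
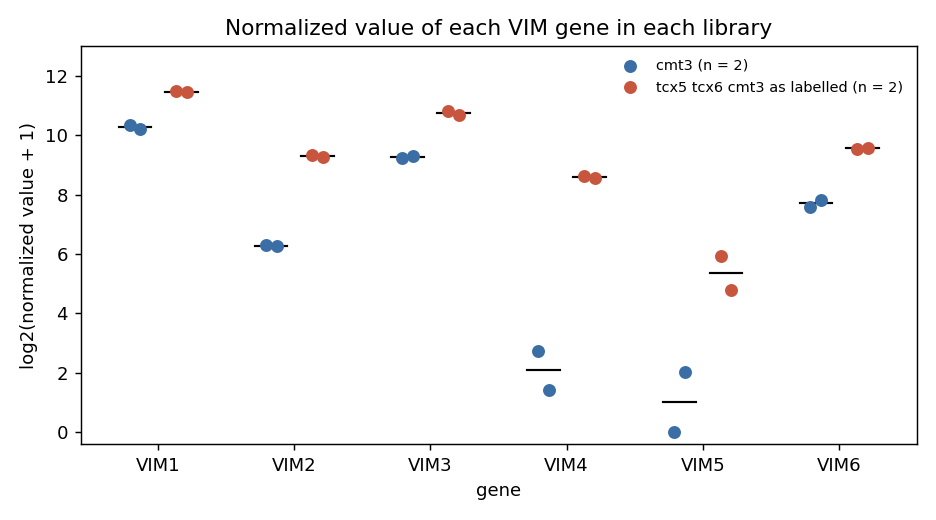
Normalized value of each VIM gene in each library on a log2(value + 1) axis, with 2 cmt3 libraries and 2 tcx-labelled libraries a gene and a line at each group mean of the plotted log2 values. The groups do not overlap in any of the 6 genes, and VIM4 and VIM5 start near 0 in cmt3.

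VIM1 and VIM3 had the highest levels per kilobase of exon in both genotypes. VIM1, the founding member of the family, was at 1291 and 1182 in the cmt3 pair against 2832 and 2796 in the tcx-labelled pair. These means of 1236 ± 76.8 and 2814 ± 25.3 (SD, n = 2 each) gave a log2 fold change of 1.19 ± 0.08 (SE; adjusted p = 0.000687 by limma), the smallest of the family. VIM3, which shares its role with VIM1, was at 601 and 630.0 in the cmt3 pair against 1793 and 1637 in the tcx-labelled pair. Its log2 fold change was 1.48 ± 0.09 (SE; adjusted p = 0.00058 by limma), and the ratio of its group means was 2.79. The 95% intervals of the log2 fold changes, 0.99 to 1.38 for VIM1 and 1.25 to 1.70 for VIM3, overlap, and the difference between the genes was not tested.

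VIM6 was intermediate in level and in change. It was at 193 and 223 in the cmt3 pair against 739.9 and 763 in the tcx-labelled pair, or a log2 fold change of 1.85 ± 0.14 (SE; adjusted p = 0.000823 by limma). The last 114 bases of its annotated span overlap AT4G08580, which is transcribed from the opposite strand, and the strand setting of the counting is unknown. AT4G08580 was at 567 and 541 in the cmt3 pair against 509 and 513 in the tcx-labelled pair (log2 fold change -0.12, adjusted p = 0.629 by limma), so the overlapping gene was not called in either direction.

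VIM2 and VIM4, the near-identical couple, had 2 of the 3 largest changes of the family. VIM2 was at 78.2 and 75.6 in the cmt3 pair against 643 and 613 in the tcx-labelled pair, or a log2 fold change of 3.01 ± 0.17 (SE; adjusted p = 0.000423 by limma). VIM4 was at 5.66 and 1.70 in the cmt3 pair against 393 and 374 in the tcx-labelled pair, or a log2 fold change of 6.50 ± 0.50 (SE; adjusted p = 0.000949 by limma). Its fold change ranked 4 among all tested genes, against 126 for VIM2. The cmt3 level of VIM4 sets this value, which was 7.15 without cmt3 replicate 1 and 5.85 without cmt3 replicate 2. The sum of both copies does not depend on how shared reads were divided between them, provided that such reads were counted. It was 83.9 and 77.3 in the cmt3 pair against 1036 and 987 in the tcx-labelled pair, or a log2 fold change of 3.63 ± 0.15 (SE; adjusted p = 0.000336 by limma). Its 95% interval of 3.27 to 3.99 lies above those of VIM1, VIM3 and VIM6, although no test of those differences was made.

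Within the couple the VIM4 share was higher in the tcx-labelled group. Per kilobase of exon, VIM4 made up 7.37% and 2.41% of the VIM2 and VIM4 total in the cmt3 libraries and 40.2% and 40.1% in the tcx-labelled libraries. VIM4 lies below VIM2 in every library, and the replicates of the tcx-labelled group differ by far less than the cmt3 replicates. The share was not tested. Division of shared reads in proportion to the reads unique to each copy, by chance or not at all would each give other shares, and which was used is not known.

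VIM5, the tandem neighbour of VIM1, was listed at 0 in cmt3 replicate 1 and was at 3.07 in cmt3 replicate 2. In the tcx-labelled group it was at 60.7 and 26.5. Both libraries were higher than in cmt3 but they differed from each other, with a mean of 43.6 ± 24.2 (SD, n = 2). The log2 fold change was 4.35 ± 0.86 (SE; adjusted p = 0.0292 by limma), with a 95% interval of 2.28 to 6.43. This was the least secure call of the family: the adjusted p was 0.102 with a pseudocount of 0.1, 0.144 in limma without the trend and 0.0923 without cmt3 replicate 1. The log2 fold change itself was 6.16 with that pseudocount, 3.34 without cmt3 replicate 1 and 5.36 without cmt3 replicate 2. Adding VIM5 to VIM1 hardly altered VIM1, with a log2 fold change of 1.21 ± 0.08 for the sum (SE; adjusted p = 0.000686 by limma), since VIM5 made up at most 2.45% of the couple per kilobase.

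How many of the family were called without 1 of the tcx-labelled libraries depended on the filter. When replicate 1 or replicate 2 of that group was left out and the same 23666 genes were kept, limma called 0 of the 6, with adjusted p from 0.138 to 0.418 and all 6 at an unadjusted p under 0.05, and it called 0 genes in the whole table, with 2407 and 2490 at an unadjusted p under 0.05. When the filter was applied again to the 3 libraries left, 5 of the 6 were called in each case, VIM5 being the exception (adjusted p = 0.184 and 0.0538). The log2 fold changes without either library were 1.41 and 1.54 for VIM3 and 2.98 and 3.05 for VIM2.

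**Figure D3:**
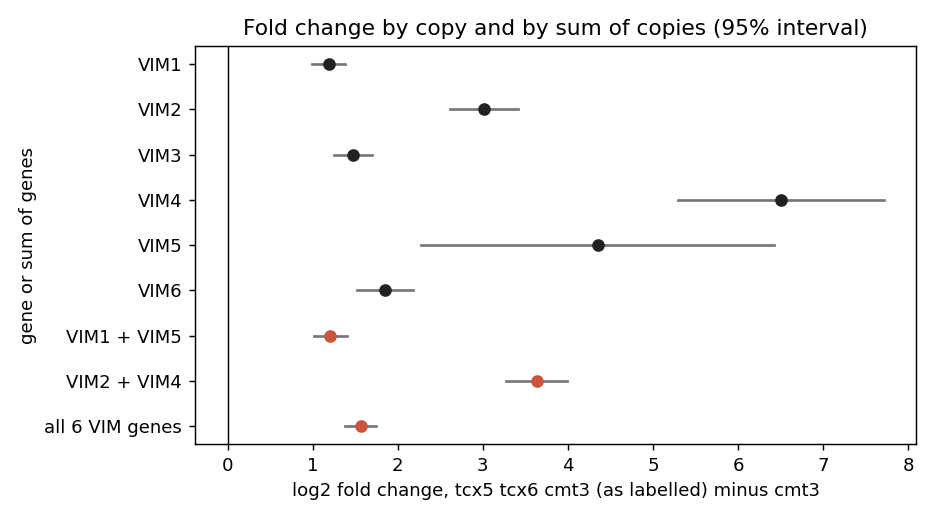
Log2 fold change of each VIM gene and of summed copies (tcx-labelled group minus cmt3), with 95% intervals from the limma fit with n = 2 libraries a group. Every interval lies above 0, and the log2 fold changes run from 1.19 for VIM1 to 6.50 for VIM4.

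Per kilobase of exon the order of the members was the same in both genotypes: VIM1, VIM3, VIM6, VIM2, VIM4, VIM5. In cmt3 their mean levels per kilobase were 498, 272, 102, 34.5, 1.82 and 0.723. VIM4 (0.839 to 2.79 per kilobase) and VIM5 (0 to 1.45 per kilobase) overlapped there, and no other neighbours in the order did. In the tcx-labelled group the mean levels per kilobase were 1134, 759, 369, 282, 189 and 20.6, with no overlap between neighbours. The levels, order and shares of VIM2 and VIM4 depend on how their shared reads were divided, which is not known. The range within the family narrowed as the low members rose: VIM1 made up 56.6% and 52.9% of the family total per kilobase in cmt3 and 40.6% and 41.8% in the tcx-labelled group, VIM3 went from 29.0% and 31.0% to 28.3% and 26.9%, and VIM2 from 3.82% and 3.77% to 10.3% and 10.2%. VIM4 and VIM5 together thus remained a minor part of the family signal, with VIM4 at 6.91% and 6.84% and VIM5 at 1.02% and 0.464% in the tcx-labelled group.

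**Figure D4:**
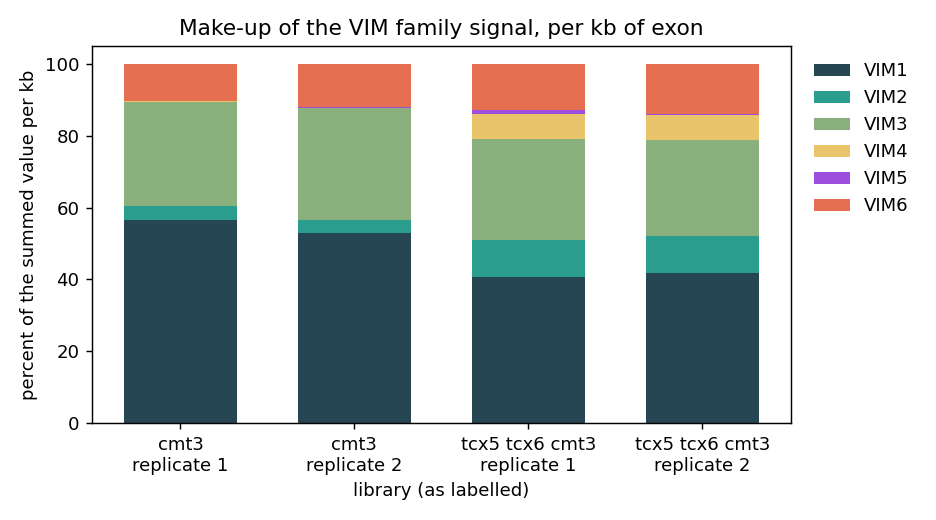
Share of each VIM gene in the family total of each library, from values per kilobase of exon (bars add to 100%). The VIM1 share lies between 52.9% and 56.6% in the cmt3 libraries and between 40.6% and 41.8% in the tcx-labelled libraries, and the VIM2 and VIM4 shares are larger there.

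The genes beside the VIM genes were mostly listed at 0. Of the annotated genes next to a member, AT1G66045 between VIM4 and VIM2, AT5G39540 and AT5G39560 on either side of VIM3, AT4G08593 beside VIM6 and the non-coding AT1G08177 beside VIM5 were listed at 0 in all 4 libraries. AT1G66030, whose end lies 11 bases from VIM4, was listed at 0 in 3 libraries and at 2.16 in tcx-labelled replicate 2. AT1G57830 beside VIM1 was between 0.96 and 3.43 (adjusted p = 0.928 by limma). AT1G66060 beside VIM2 was at 0 and 1.19 in the cmt3 pair against 6.45 and 13.7 in the tcx-labelled pair, which did not pass the test (log2 fold change 2.82, adjusted p = 0.103 by limma). The pseudogene AT1G57810 between VIM5 and VIM1 has no row in the table used here. The only neighbours tested, AT1G57830, AT1G66060 and AT4G08580, were not called, where 8.47% of all tested genes were called in either direction.

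Because the members rose together, the 250 bases before their annotated starts were searched for 2 kinds of motif on both strands. The first was TTTGAA or TTCGAA, forms of the cell cycle homology region (CHR) that the CXC-domain subunit of DREAM binds in human cells, and the second was the E2F site as TTTCCCGC, TTTGGCGC, TTTCGCGC or TTTGCCGC. The windows of VIM2, VIM3, VIM4 and VIM5 are shown because the first 3 are related in sequence and because VIM4 and VIM5, near 0 in cmt3, hold CHR letters (in capitals), as chr1:24589093-24589342 (plus strand), chr5:15840679-15840928, chr1:24586761-24587010 and chr1:21412284-21412533 (minus strand), 5′ to 3′ in the direction of the gene, RefSeq sequence of TAIR10.1:
VIM2: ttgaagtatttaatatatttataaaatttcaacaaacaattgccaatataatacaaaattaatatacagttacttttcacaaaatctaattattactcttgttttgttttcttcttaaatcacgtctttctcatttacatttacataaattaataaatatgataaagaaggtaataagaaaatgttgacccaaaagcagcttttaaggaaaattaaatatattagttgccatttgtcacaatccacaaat
VIM3: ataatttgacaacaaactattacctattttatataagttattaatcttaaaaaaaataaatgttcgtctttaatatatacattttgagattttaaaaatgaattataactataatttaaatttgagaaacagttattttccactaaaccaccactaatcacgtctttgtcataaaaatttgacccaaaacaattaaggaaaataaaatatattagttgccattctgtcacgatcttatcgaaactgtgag
VIM4: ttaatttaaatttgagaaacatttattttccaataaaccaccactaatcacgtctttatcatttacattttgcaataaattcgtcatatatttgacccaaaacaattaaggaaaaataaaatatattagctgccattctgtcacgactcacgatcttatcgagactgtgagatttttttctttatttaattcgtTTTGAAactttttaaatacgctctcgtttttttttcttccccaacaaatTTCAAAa
VIM5: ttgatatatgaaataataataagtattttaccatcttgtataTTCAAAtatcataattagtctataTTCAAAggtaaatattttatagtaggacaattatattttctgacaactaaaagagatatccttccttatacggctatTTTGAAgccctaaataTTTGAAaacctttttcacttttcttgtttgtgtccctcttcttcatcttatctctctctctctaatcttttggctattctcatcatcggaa
VIM4 held TTTGAA at 56 and 7 bases before its start and VIM5 at 208, 184, 107 and 91. VIM1 held it at 238 bases, and VIM6 held TTCGAA at 210 and TTTGAA at 46. VIM2 and VIM3 held neither in full in this window. In VIM2 a TTTGAA began 251 bases before the start, so its first letter fell outside and the rest opens the window shown. The annotated starts do not fall at matching points of the related sequences. The ends of the VIM2 and VIM3 windows match a part of the VIM4 window that lies before both of its TTTGAA sites. Any counterpart of those sites in VIM2 or VIM3 would lie past the annotated start and was not searched for. In all, 4 of the 6 windows held a CHR form, where 43.4% of the windows of 27443 protein-coding genes did, and 0 of 6 held a listed E2F form, where 1.41% of all windows did. These short motifs are common, and a match is a description of letters and not of a bound site. With 500 bases the CHR count was 5 of 6, against 68.0% of all genes.

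The sequence before the coding start was related among the same 3 genes as the coding sequence. Over the 300 bases before the initiation codon, VIM2 and VIM3 aligned over 239 positions at 95.82% identity, VIM3 and VIM4 over 255 at 91.37% and VIM2 and VIM4 over 213 at 90.61%. VIM1 aligned with VIM2 over 111 positions at 90.09%, while VIM1 and VIM5, neighbours in the genome, aligned over 19. By percent identity VIM2 and VIM3 were the closest, while VIM3 and VIM4 aligned over more positions. The log2 fold changes of VIM2, VIM3 and VIM4 were 3.01, 1.48 and 6.50, and a relation to the upstream sequence was not tested.

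The partners of the VIM proteins in CG maintenance were also higher. All 4 genes of that list passed the test in this direction, where 6.15% of all tested genes did, with a median log2 fold change of 0.88. MET1, the CG methyltransferase, was at 2714 and 2379 in the cmt3 pair against 4773 and 4553 in the tcx-labelled pair. DDM1, the remodeler that lets methyltransferases reach heterochromatin, had the largest change of the 4, with a log2 fold change of 1.82 ± 0.09 (SE; adjusted p = 0.000387 by limma). PCNA1 and PCNA2, the sliding clamp of replicating DNA, had log2 fold changes of 0.89 and 0.72 (adjusted p = 0.00267 and 0.0055 by limma). Of the MET1 relatives 0 of 2 tested genes were called, where 8.47% of all tested genes were called in either direction. Whether these relatives differ from MET1 was not tested. MET2A (AT4G14140) was at 79.8 and 57.4 in the cmt3 pair against 75.4 and 89.3 in the tcx-labelled pair, MET2B (AT4G08990) was at 33.0 and 38.1 and at 21.6 and 28.0 in the same order. Their log2 fold changes were 0.27 ± 0.31 and -0.51 ± 0.39 (SE). MET3 (AT4G13610) did not pass the filter, at 1.19 in 1 library and listed at 0 in the others.

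The other genes with the SRA domain are the 10 SUVH histone methyltransferase relatives. Of these 7 were tested and 2 were called higher, where 6.15% of all tested genes were, and 0 were called lower, with a median log2 fold change of 0.06. SUVH4, which methylates histone H3 and acts with CMT3, was at 690.1 and 674 in the cmt3 pair against 1423 and 1466 in the tcx-labelled pair (adjusted p = 0.00104 by limma). SUVH5, of the same kind, was at 159 and 191 and at 296 and 312 (adjusted p = 0.0462 by limma). SUVH1, SUVH2, SUVH3, SUVH6 and SUVH9 were not called, with log2 fold changes from -0.15 to 0.20, and SUVH7, SUVH8 and SUVH10 were at or near 0 in every library. No test compared the VIM and SUVH families as groups.

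Markers of dividing cells moved with the VIM genes. All 10 of that list were called higher, where 6.15% of all tested genes were, with a median log2 fold change of 1.04, and their summed value was 5357 and 5445 in the cmt3 pair against 12016 and 11586 in the tcx-labelled pair. MCM5, a subunit of the replicative helicase, and KNOLLE, a syntaxin of the cell plate, had the highest means of the list and log2 fold changes of 0.74 and 1.03. PCNA1 and PCNA2 stand in this list and in that of the partners. This list too was chosen with earlier results of these data known, so its count is no independent check. Its members are cell cycle genes, the kind that DREAM represses. More dividing cells and more of these RNAs in each cell cannot be told apart here. Of the leaf markers 0 of 10 and of the root markers 0 of 8 were called in either direction, counts near the 8.47% of all tested genes. The summed leaf markers were 1660530 and 1308840 in the cmt3 libraries (replicates 1 and 2), with 1386910 and 1431110 in the tcx-labelled ones. The summed root markers were 58411 and 88961 in the cmt3 libraries, with 53919.6 and 48932.5 in the tcx-labelled ones. RBCS1A and LHCB1.3 led the leaf list and PYK10 and EXPA7 the root list. Of the shoot meristem and boundary markers 0 of 5 tested genes were called, where 8.47% of all tested genes were. Their median log2 fold change was 0.71. KNAT1 and STM were the most abundant, and CLV3 and WUS were listed at 0 throughout. STM was at 49.7 and 44.7 in the cmt3 libraries, with 70.8 and 63.8 in the tcx-labelled ones. CUC3, named after its values were seen, was at 18.0 and 14.7, with 44.8 and 40.4. In both genes the tcx-labelled libraries lay above the cmt3 libraries, a pattern seen in 24.4% of tested genes. In KNAT1 the groups overlapped, at 207 and 286 in the cmt3 libraries, with 206 and 234 in the tcx-labelled ones (log2 fold change -0.15). Of 7 tested flower markers 1 was called higher, where 6.15% of all tested genes were. This was SEP3, at 283 and 259 in the cmt3 pair against 960.4 and 668 in the tcx-labelled pair. AP3, next in abundance, was at 23.4 and 20.1 in the cmt3 pair against 40.5 and 30.7 in the tcx-labelled pair. Its log2 fold change was 0.68 and it was not called. SEP1, named after its values were seen, was lower and not called, at 14.4 and 6.69 against 2.46 and 1.65 in the same order. The median log2 fold change of the flower list was 0.68. The part of dividing, meristem or flower cells in the VIM values was not tested.

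The genes whose profile lay nearest to the summed family were sought among the other 23660 tested genes, by Euclidean distance over the 4 libraries in log2(value + 1) centred on each gene's mean. The nearest was CENP-C (AT1G15660), a centromere protein, at a distance of 0.0137, with 723 and 713 in the cmt3 pair against 2167 and 2067 in the tcx-labelled pair. AT1G05950 followed at 0.0406, and TCH4 (AT5G57560), a xyloglucan endotransglucosylase of the cell wall, at 0.0492. With 4 libraries in 2 groups such a distance mostly reflects a similar difference between genotypes.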

How the data were processed

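The authors named HISAT2, edgeR and the TAIR10 build, per the submitters' processing notes, with no version. Not given in the sources used here were counter, annotation and strand setting. The authors deposited 1 column a library of normalized signal for each gene. Whole-read steps were looked for among low values, and at the best step 35.7% to 49.8% were whole within 0.1, so reads were not recovered, depth is unknown and no count test or interval needing depth was used. Values under 1e-10 were set to 0, and 4 further per-sample columns of the table match no sample given here and enter no analysis. Column totals were 38264500 to 41106100.

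The tested genes reached 1 in at least 2 libraries. The model, by limma 3.58.1 (R 4.3.3), used log2(value + 1) (group as the only term, mean-variance trend), with Benjamini-Hochberg adjustment over all tested genes and a threshold of 0.05, and the fit was tested on simulated data. Such fold changes understate changes of low genes. For summed copies the rows were replaced by their sum and the table was fitted again. All 32548 identifiers matched TAIR10.1 locus tags. That build was used for annotation and sequences because no sequence of the authors' own reference is given here, and TAIR10.1 carries the nuclear chromosomes of TAIR10. Levels per kilobase use the union of annotated exons. Coding sequences were aligned with Biopython 1.88 in Python 3.11.15, from the transcript with the longest coding sequence. Proteins were not compared here.

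Named genes were the members, the labelled mutant genes, the lists of partners, MET1 relatives and SRA-domain genes, the genes next to each member, the 3 nearest profiles, and the 2 most abundant of each marker list. CLV3, WUS, CUC3 and SEP1 were also named after their values were seen. The members and lists were chosen with earlier results of these data known. Alternatives were another pseudocount, filter, normalization, trend setting, threshold, a replicate block, each library left out, other stretch lengths and a longer upstream window.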

Additional observations from a re-analysis of the deposited data

How the results depend on the processing

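Under 16 alternatives none of the 9 log2 fold changes (6 genes, 2 couples, the family) changed sign. For most alternatives this was fixed in advance. Filter, trend, threshold and block settings leave a fold change as it was. As the groups did not overlap, neither a pseudocount nor leaving out a library could reverse it. Only the changes of normalization could have done so. VIM5 lost its call with a pseudocount of 0.1 (6.16), without the trend and at a threshold of 0.01 (4.35 in each). Calls in the whole table, 1456 higher and 549 lower, were 586 and 135 without the trend and 780 and 173 at 0.01. Deviations from the group mean were not correlated between libraries of the same replicate number (correlation 0.000633), which does not tell how replicates were grown. With the replicate block all 6 VIM genes stayed called, with 1314 genes higher and 473 lower.

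With 1 library left out, its partner alone in the group is assumed to vary like the other pair. Across these fits 0 to 6 VIM genes were called, and 0 to 3068 genes higher and 0 to 2568 lower. The log2 fold changes ranged from 1.12 to 1.25 for VIM1, 2.98 to 3.05 for VIM2, 1.41 to 1.54 for VIM3, 5.85 to 7.15 for VIM4, 3.34 to 5.36 for VIM5, 1.75 to 1.96 for VIM6, 1.15 to 1.27 for VIM1 + VIM5, 3.58 to 3.69 for VIM2 + VIM4 and 1.54 to 1.59 for the family. Without a tcx-labelled library, keeping all tested genes left 102 with equal values in the cmt3 pair, and limma's prior degrees of freedom were 2.72 and 2.7. Filtering the 3 libraries again, chosen after seeing the data, left 0 such genes, and the values were 8.76 and 8.51, with 757 and 720 genes higher and 212 and 217 lower (VIM5 3.77 and 4.93, not called). Without a cmt3 library, genes called higher numbered 1182 and 1281 and lower 341 and 530, or 2999 and 3068 and 2184 and 2568 filtered again.

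Unique shares moved with stretch length. At 50 bases they were 29.34% for VIM2, 83.67% for VIM3, 22.89% for VIM4, 99.76% for VIM5 and 96.29% for VIM6, and at 150 bases 44.32% for VIM2, 38.42% for VIM4 and 100% for VIM3 and VIM6. Depth is unknown, so what it limits for VIM4 and VIM5 in cmt3 cannot be given.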
